A study of Mus musculus with 10 samples.

Results

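The genes of the ATPases and core subunits of the SWI/SNF (BAF) chromatin remodelling complex were followed across mouse cerebellar tumors and developing cerebellum. The 10 members were chosen by symbol from the 50559 genes of the count files: the ATPases Smarca4 and Smarca2, the scaffold subunits Smarcc1 and Smarcc2, the core subunits Smarcb1, Smarce1 and Smarcd1, and the ARID subunits Arid1a, Arid1b and Arid2. All 10 passed the filter on low counts, which 29952 genes passed. RNA-seq counts were available for 10 libraries from formalin-fixed, paraffin-embedded tissue, namely 4 MYC/SMARCA4 tumors, 3 Sonic hedgehog medulloblastomas (SHH MB) and 3 P7 cerebella. The MYC/SMARCA4 tumors came from granule cell precursors (GCPs) of Math1-creERT2::Smarca4 fl/fl pups that had received 0.4 mg tamoxifen at day 3. The GCPs were transduced with a lentivirus for murine Myc and GFP and transplanted into cerebella of CD1 nu/nu mice. Tumors 1, 2, 3 and 4 carry age labels of 112, 96, 89 and 79 days. SHH MB came from Math1-cre::Smo fl/wt mice with an age label of 7 days and wild-type Smarca4. P7 cerebella were whole cerebella of 7-day-old Math1-creERT2::Smarca4 fl/fl mice that had received the same tamoxifen dose at the same day, so these controls carried the floxed Smarca4 allele and the inducible recombinase as well. The Math1 promoter directs the recombinase to granule cell precursors, and tumor tissue also holds host cells with intact Smarca4, such as vessels.

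SWI/SNF complexes use the energy of ATP to slide or evict nucleosomes and so open chromatin at promoters and enhancers. Each complex holds either SMARCA4 (BRG1) or its paralog SMARCA2 (BRM) as the motor, on a scaffold of SMARCC1 and SMARCC2. ARID subunits mark some of the complex types: ARID1A or ARID1B in canonical BAF and ARID2 in PBAF. In the developing nervous system, progenitors exchange several subunits for neuronal paralogs when they leave the cell cycle. SMARCA4 and ARID1A are among the chromatin regulators mutated in human medulloblastoma, and loss of SMARCB1 or SMARCA4 defines atypical teratoid/rhabdoid tumors.

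The 2 ATPase genes lie on different chromosomes. In GRCm39 with the GENCODE annotation, Smarca4 spans chr9:21527398-21615526 on the plus strand with 34 exons in its canonical transcript of 6434 bases. Smarca2 spans chr19:26582450-26755722 on the plus strand with a canonical transcript of 7471 bases. The bases directly upstream of the first annotated exon of each are shown because the levels of these paralogs, and their ratio, are described in every library. They are read 5′ to 3′ on the plus strand of GRCm39 at chr9:21527215-21527397 for Smarca4 and chr19:26582310-26582449 for Smarca2, with GC boxes (GGGCGG or CCGCCC, bound by SP-family factors) in capitals.
Smarca4: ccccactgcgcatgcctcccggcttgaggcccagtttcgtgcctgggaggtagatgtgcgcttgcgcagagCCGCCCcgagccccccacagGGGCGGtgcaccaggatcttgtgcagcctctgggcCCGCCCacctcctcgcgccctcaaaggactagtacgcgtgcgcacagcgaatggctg
Smarca2: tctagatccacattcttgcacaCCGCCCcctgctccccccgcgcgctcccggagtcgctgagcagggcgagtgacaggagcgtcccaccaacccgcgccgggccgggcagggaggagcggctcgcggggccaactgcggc
The Smarca4 stretch holds 3 GC boxes and has a GC content of 68.9%, and the Smarca2 stretch holds 1 and has 73.6%. An annotated exon on the opposite strand, from chr9:21526939, reaches into the Smarca4 stretch, while the Smarca2 stretch overlaps no annotated exon. In RefSeq promoter windows of 250 bases before to 50 bases after a start (GRCm38.p6), 8 of the 10 members had an entry, with 9 windows. All 9 held a GC box, as did 35.7% of all 32851 windows. None of the 9 held the E-box CACGTG, the preferred MYC-MAX motif, which 7.15% of all windows held. None held TATAAA on either strand, found in 13.6% of all windows. These matches describe letters only. GC content of the 9 windows ranged from 60.7% to 81.0% against a median of 52.7% for all windows.

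Total counts ranged from 5663491 to 9352109 per library, and no member had fewer than 102 counts in any library. The tumors differed from each other far more than the other groups did: chi-square per degree of freedom between libraries was 26.6 to 99.1 among tumors, 3.76 to 5.50 among SHH MB and 4.03 to 6.22 among P7 cerebella. Tumor 1 stood apart. Its mean log2 CPM (counts scaled to library size with TMM factors, CPM) over 6 proliferation markers was 3.90, against 7.25 to 7.61 in the other tumors, and mitochondrial genes took 6.36% of its counts against 2.29% to 2.94%. Calls of members that change without this library are given with and without it. Ranges with a library left out are given at the end for fitted changes and ratios that turned direction. In the paper's clustering with human medulloblastomas, tumor 3 was the exception and lay close to SHH MB. Myc counts were 614, 2043, 11342 and 8326 in tumors 1 to 4, 91 to 131 in P7 cerebella and 247 to 322 in SHH MB. Gli1, a target of SHH signaling, had 1227 to 1316 counts in SHH MB, 398 to 486 in P7 cerebella and 34 to 917 in the tumors.

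Smarca4, the gene targeted in the tumors and in the P7 cerebella, was counted in every library. Tumors 1 to 4 had 841, 1355, 971 and 1950 Smarca4 counts, or 7.69, 7.92, 7.08 and 7.88 log2 CPM. P7 cerebella had 2166, 2584 and 1814 counts, or 7.78, 8.13 and 8.01 log2 CPM. SHH MB, with wild-type Smarca4, had 3510, 4163 and 4152 counts, or 9.08, 8.93 and 9.19 log2 CPM. The 3 SHH MB were higher than every tumor and every P7 cerebellum, while tumors and P7 cerebella overlapped. Counts cover the whole gene, and the floxed exons are not given in the sources used here, so these levels do not measure how much functional transcript or protein was left. By staining, the authors found no SMARCA4 protein in the tumor cells, and PCR of tumor biopsies showed recombined Smarca4. In bulk tissue, fewer cells of a type and less RNA per cell cannot be told apart.

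The comparison of MYC/SMARCA4 tumors with SHH MB sets the tumor against a medulloblastoma of the same lineage without a Smarca4 deletion. The groups also differ in age label, in transplantation into CD1 nu/nu mice and in the Myc lentivirus. These differences cannot be told apart from the Smarca4 deletion. Smarca4 was lower by 1.39 on the log2 scale in tumors than in SHH MB (SE 0.28, 95% interval -2.0 to -0.79), a 2.63-fold lower level. The edgeR quasi-likelihood adjusted p was 0.0157 over all genes tested. It was the 1 member of 10 called at an adjusted p of at most 0.05, where 4.68% of all genes were called and 2.26% called lower, and the 1 with an unadjusted p under 0.05, where 19.8% of all genes were. The 4 tumors and 3 SHH MB did not overlap (exact two-sided permutation test p = 0.029, the smallest that 4 against 3 can give), as for 16.1% of all genes, in 8.3% with tumors below. The call was lost without any of the SHH MB and without P7 cerebella in the fit: adjusted p was 0.0991, 0.0824 and 0.122 without SHH MB 1, 2 and 3 and 0.0585 with only these groups fitted, where 1.48% of all genes were called, with log2 fold changes of -1.33 to -1.46. The other 9 members had log2 fold changes of -0.35 (Smarcc2) to 0.57 (Smarca2) with adjusted p of 0.522 or more. For Smarcb1, whose loss defines most rhabdoid tumors, the change was -0.04 with an interval of -0.56 to 0.48, and levels were 5.54 ± 0.28 log2 CPM in tumors (SD, n = 4) and 5.61 ± 0.11 in SHH MB (SD, n = 3).

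Against P7 cerebella, the tissue from which the GCPs were taken at about the same age, none of the 10 members was called by edgeR, where 6.26% of all genes were, and 1 had an unadjusted p under 0.05, where 25.2% of all genes did. The tumors differ from these whole cerebella in age label, transplantation into CD1 nu/nu mice, Myc lentivirus and cell makeup, and both carried floxed Smarca4 with tamoxifen. These differences cannot be told apart in this comparison. Smarca4 had a log2 fold change of -0.30 (SE 0.28, interval -0.90 to 0.31, adjusted p 0.495). The largest change was that of Smarcc1 with 1.24 (SE 0.53, interval 0.10 to 2.38, adjusted p 0.165). DESeq2 called 0 members too, where it called 15.4% of all genes. Without tumor 1, Smarcc1 rose by 1.51 with an edgeR adjusted p of 0.000487, where 15.7% of all genes were called. Fitted changes were above 0 for 8 of 10 members with a median of 0.27 against -0.05 over all genes, and for 7 of 10 without tumor 1. Without TMM factors, however, only 3 of 10 were above 0, and the median of all genes was then -0.41.

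SHH MB against P7 cerebella compares a tumor of granule cell precursors with whole developing cerebellum of the same age label. These P7 cerebella carried floxed Smarca4 and had received tamoxifen, while SHH MB had wild-type Smarca4. Tumor state and Smarca4 genotype therefore cannot be told apart in this comparison. Levels of 8 of the 10 members were higher in every SHH MB than in every P7 cerebellum. Groups did not overlap for 36.8% of all genes, in 17.8% with SHH MB above. Smarca4 was 2.13-fold higher (log2 fold change 1.09, SE 0.30, interval 0.44 to 1.75) and Smarcc1 2.12-fold higher (log2 fold change 1.09, SE 0.55, interval -0.10 to 2.28). In the fit of all 3 groups none of the 10 was called by edgeR (adjusted p 0.26 for Smarca4), 0.224% of all genes were, and 1 member had an unadjusted p under 0.05, where 8.8% of all genes did. The spread in this fit is shared with the tumors. With only SHH MB and P7 cerebella fitted, 7 of 10 members rose, where 23.7% of all genes were called and 13.4% called higher. Smarca4 then had a log2 fold change of 1.11 (SE 0.12, adjusted p 8.1e-08) and Smarcc1 of 1.11 (SE 0.12, adjusted p 4.2e-08). Arid1a, Arid2, Smarce1, Smarcb1 and Smarcd1 followed with 0.62, 0.58, 0.48, 0.43 and 0.37. Smarca2 (-0.22), Smarcc2 (0.16) and Arid1b (0.17) were not called in that fit. DESeq2 on all groups called Smarca4 alone among the members (adjusted p 0.00631, 1.92% of all genes called), and edgeR called it without tumor 3 (adjusted p 0.0391, 1.54% of all genes called) and, together with Smarcc1, without tumor 1 (adjusted p 0.0243 and 0.0107, 4.05% of all genes called). Proliferation markers had a mean of 7.33 to 7.44 log2 CPM in SHH MB and 5.90 to 6.51 in P7 cerebella. Their part in these differences was not tested.

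**Figure D1:**
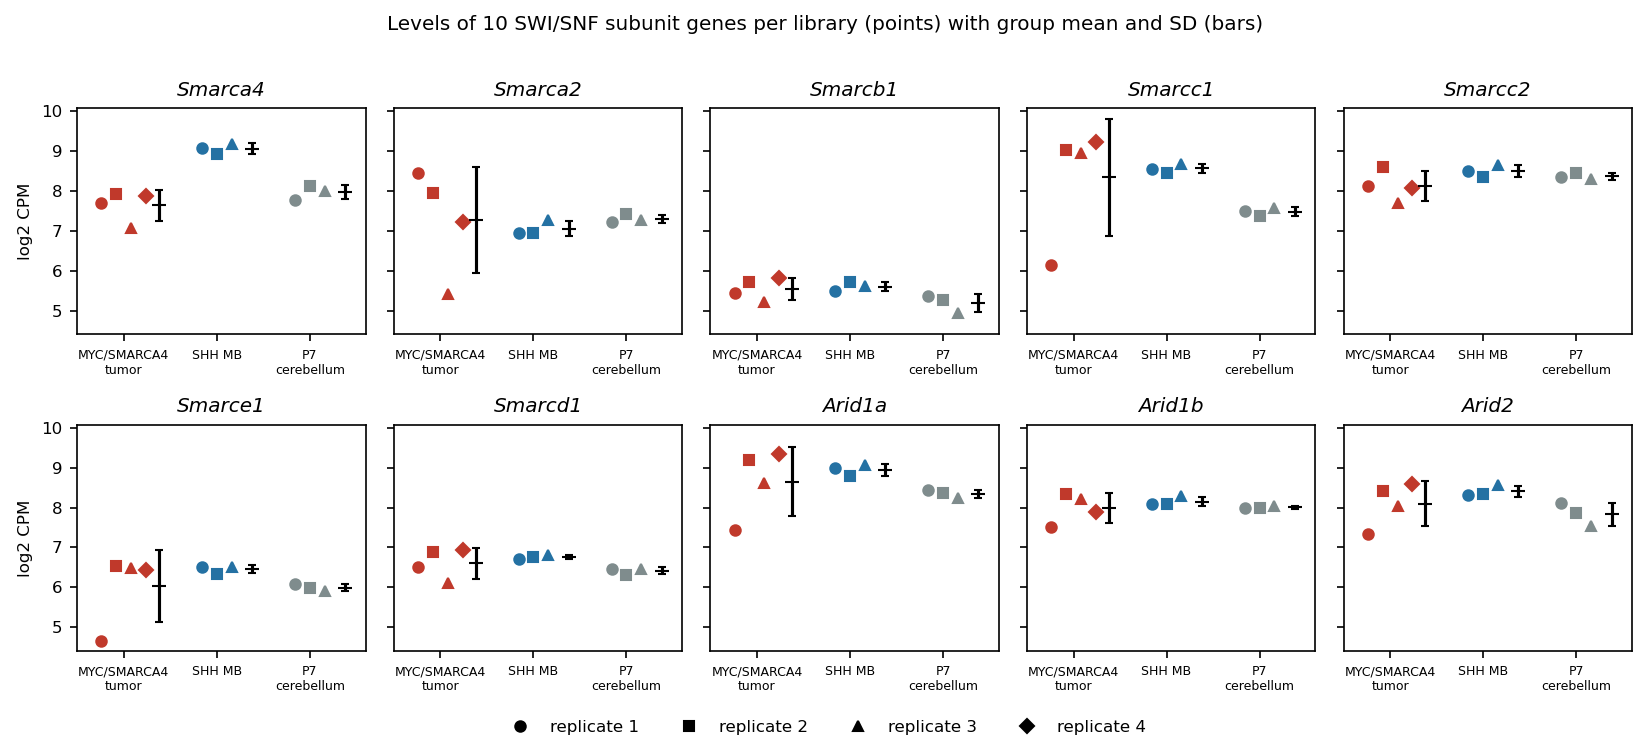
Level of each of the 10 genes in log2 CPM (vertical axis) in each library, with a point per library and the group mean with SD as a bar. Smarca4 lies between 8.93 and 9.19 in SHH MB and at or below 8.13 in all other libraries, and tumor 1 (red circle) lies far below the other tumors for Smarcc1 and Smarce1.

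**Figure D2:**
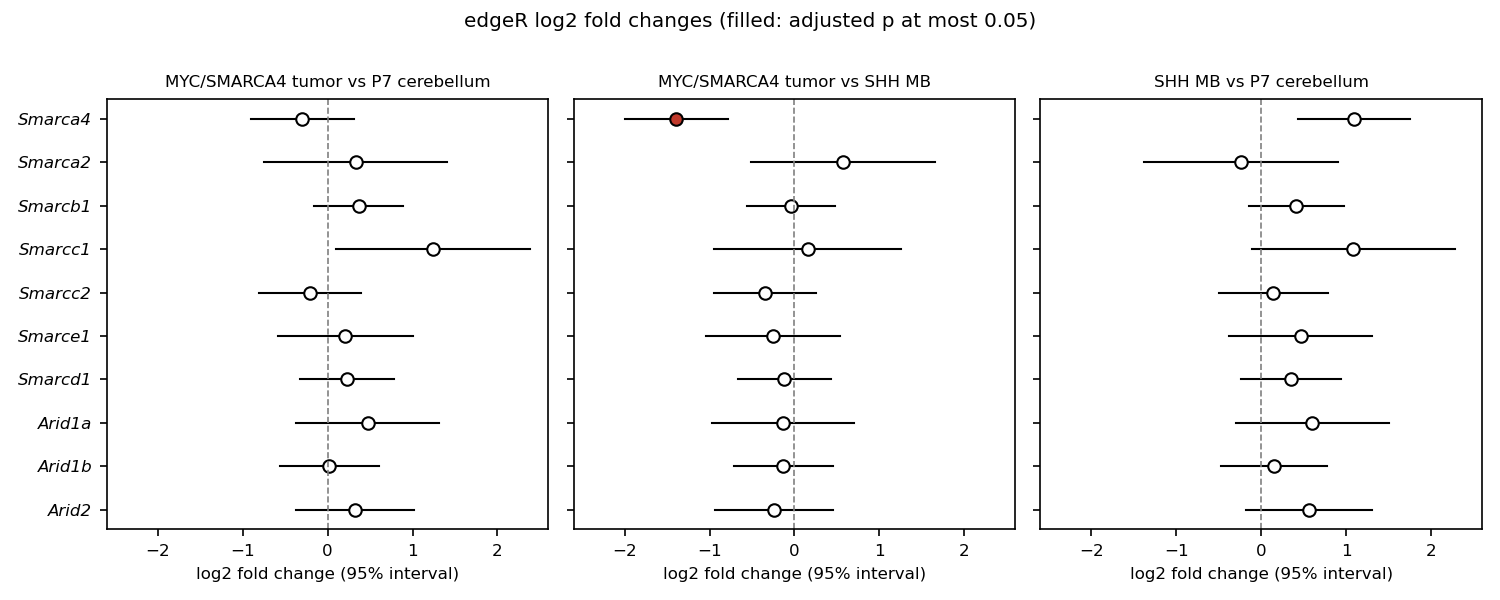
Log2 fold change (horizontal axis) of each gene in the 3 comparisons from the edgeR fit of all 10 libraries, with 95% intervals as lines. The filled point is the only call at an adjusted p of at most 0.05, Smarca4 at -1.39 in MYC/SMARCA4 tumors against SHH MB.

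Smarca2, the alternative ATPase, is the partner on which cells without SMARCA4 are known to depend in several cancers. Its levels in tumors 1 to 4 were 8.46, 7.96, 5.42 and 7.23 log2 CPM, from 1436, 1398, 306 and 1242 counts. They enclosed those of P7 cerebella (7.21, 7.42 and 7.28) and of SHH MB (6.95, 6.96 and 7.27). Log2 fold changes in tumors were 0.33 against P7 cerebella (interval -0.75 to 1.41, edgeR adjusted p 0.676) and 0.57 against SHH MB (interval -0.51 to 1.65, adjusted p 0.569). Both intervals hold changes in either direction, so these libraries do not settle whether Smarca2 differed. Without tumor 1 the fitted changes were -0.21 and -0.0023, the lower ends of the ranges with a library left out. The upper ends were 0.48 against P7 cerebella and 0.74 against SHH MB.

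The order of the tumors by Smarca2 was the order by neuronal markers. Mean log2 CPM of 6 pan-neuronal markers was 8.49, 8.05, 5.38 and 7.26 in tumors 1 to 4. For 6 mature granule neuron markers it was 9.20, 7.40, 4.44 and 6.61, with a summed level of 156.4 to 4487 CPM in tumors, 266.1 to 319.9 in P7 cerebella and 184.4 to 202.1 in SHH MB. None of these markers was at 0 in any library. Purkinje cell markers followed the same order (9.66, 7.10, 3.79 and 6.64), and so did markers of myelinating oligodendrocytes (8.02, 5.64, 3.50 and 5.08) and endothelial cells (5.38, 4.32, 3.72 and 4.10). Microglia (4.03, 3.30, 2.39 and 3.72), astrocyte and Bergmann glia (5.43, 6.79, 3.62 and 5.94) and granule cell lineage markers (6.25, 6.92, 6.27 and 5.48) did not follow it. How much of the Smarca2 RNA came from such cells was not tested. The labels do not say how much normal cerebellum the punches held.

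**Figure D3:**
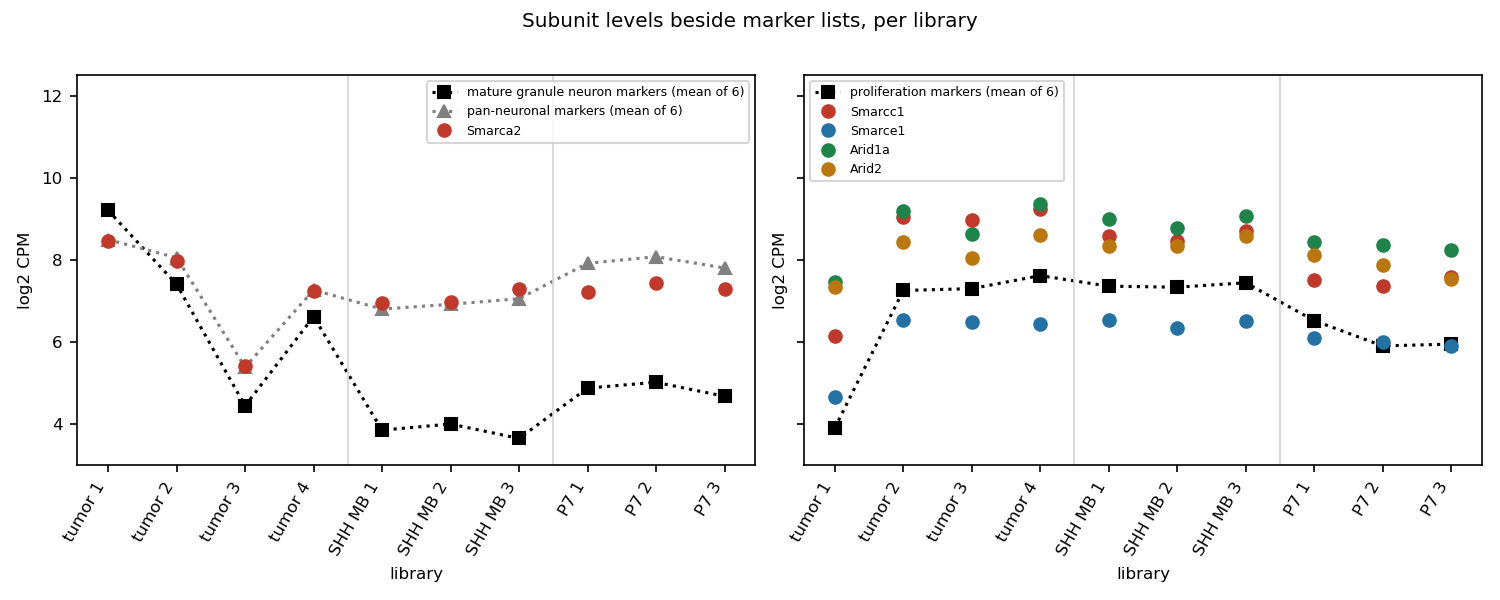
Log2 CPM (vertical axis) per library (horizontal axis) of Smarca2 beside the mean of 6 mature granule neuron and 6 pan-neuronal markers (left) and of Smarcc1, Smarce1, Arid1a and Arid2 beside the mean of 6 proliferation markers (right). Smarca2 falls from 8.46 in tumor 1 to 5.42 in tumor 3 as the pan-neuronal mean falls from 8.49 to 5.38, and tumor 1 is lowest for the proliferation mean (3.90) and for the 4 subunits on the right.

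The balance of the 2 ATPases was then compared. Per kilobase of canonical transcript, Smarca2 made up 59.5%, 47.0%, 21.3% and 35.4% of the summed Smarca2 and Smarca4 level in tumors 1 to 4. The share was 34.2% to 36.8% in P7 cerebella and 16.4% to 18.5% in SHH MB. All 4 tumors and all 3 P7 cerebella were thus above all SHH MB, and on this scale tumor 1 was the only library with more Smarca2 than Smarca4. The log2 ratio differed by 1.63 between tumors and SHH MB (exact two-sided permutation test p = 0.057, adjusted p 0.225 over 9 ratio tests). It differed by -1.34 between SHH MB and P7 cerebella (p = 0.1 by the same exact test, the smallest that 3 against 3 can give, adjusted p 0.225) and by 0.29 between tumors and P7 cerebella (exact p = 0.657). The difference between tumors and P7 cerebella turned direction without tumor 1. None of the 9 ratio tests passed the adjustment. With the union of all exons as length, Smarca2 shares were 10.4% to 38.7% in tumors, 18.2% to 19.9% in P7 cerebella and 7.74% to 8.89% in SHH MB, with no library above 50%, so the shares depend on the gene model while the differences between groups in log2 ratio do not.

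The scaffold subunits diverged within the tumors. Smarcc1 (BAF155) was at 6.14 log2 CPM in tumor 1 and at 9.04, 8.97 and 9.23 in tumors 2, 3 and 4. P7 cerebella had 7.50, 7.37 and 7.59 and SHH MB 8.57, 8.45 and 8.69. Tumors 2 to 4 were thus above all libraries of both other groups, and tumor 1 was below all of them. Smarcc2 (BAF170) ranged only from 7.71 to 8.61 in tumors, 8.31 to 8.47 in P7 cerebella and 8.37 to 8.67 in SHH MB.

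Smarcc2 made up 74.8%, 35.8%, 23.8% and 25.3% of the summed scaffold level per kilobase in tumors 1 to 4, 55.2% to 61.6% in P7 cerebella and 41.3% to 42.5% in SHH MB. By exon-union length the shares were 81.7%, 45.6%, 32.0% and 33.7% in tumors 1 to 4, 65.0% to 70.7% in P7 cerebella and 51.5% to 52.6% in SHH MB. The log2 ratio of Smarcc2 to Smarcc1 differed by -1.10 between tumors and P7 cerebella (exact permutation test p = 0.229), and by -1.83 without tumor 1 (p = 0.1 by the same exact test, the smallest 3 against 3 can give). Between SHH MB and P7 cerebella it differed by -0.95 (exact p = 0.1).

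**Figure D4:**
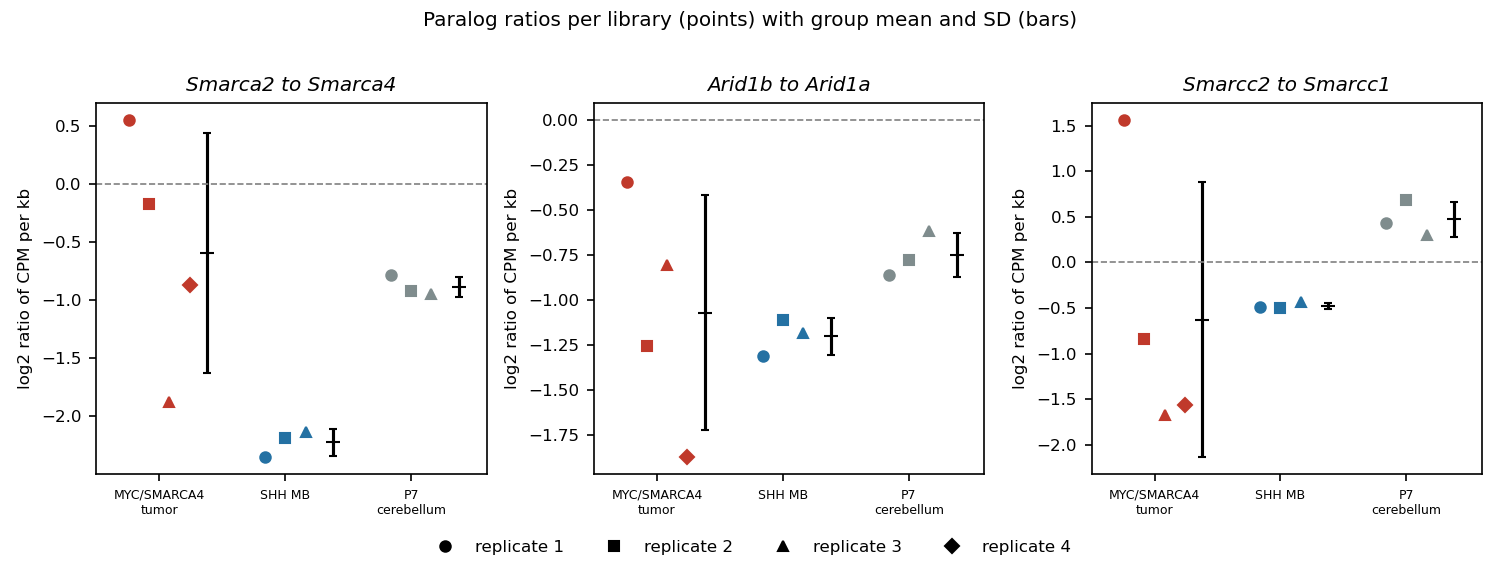
Log2 ratio of level per kilobase (vertical axis) of 3 paralog pairs in each library, with a point per library and the group mean with SD as a bar. SHH MB lie between -2.35 and -2.13 for Smarca2 to Smarca4, below all other libraries, and the tumors spread from -1.68 to 1.56 for Smarcc2 to Smarcc1.

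Because each complex holds an ATPase on a scaffold dimer, the summed ATPase level was set against the summed scaffold level, both in CPM per kilobase. This ratio was chosen after the values were seen and is given without a test. It was 0.312, 0.146 and 0.255 in tumors 2, 3 and 4, below all P7 cerebella (0.457 to 0.555) and all SHH MB (0.555 to 0.560), and 1.02 in tumor 1. For Smarca4 alone the ratio was 0.165, 0.115 and 0.165 in tumors 2, 3 and 4 and 0.415 in tumor 1, against 0.289 to 0.364 in P7 cerebella and 0.455 to 0.466 in SHH MB. These ratios depend on the gene model: by exon-union length that of Smarca4 alone was 0.325, 0.238 and 0.339 in tumors 2, 3 and 4, 0.699 in tumor 1, 0.520 to 0.644 in P7 cerebella and 0.873 to 0.894 in SHH MB. The ratio of the sums was then 0.265 to 0.448 in tumors 2 to 4, 1.14 in tumor 1, 0.650 to 0.790 in P7 cerebella and 0.956 to 0.969 in SHH MB, so tumors 2 to 4 were lowest in both ratios under both lengths. In tumors 2 to 4 the summed scaffold level was 182.8 to 227.6 CPM per kilobase, against 118.0 to 119.6 in P7 cerebella and 166.2 to 199.1 in SHH MB. Tumors 2 to 4 and SHH MB thus overlapped in it. The summed ATPase level was 26.6 to 71.0 in tumors 2 to 4, 53.9 to 66.4 in P7 cerebella and 92.2 to 111.6 in SHH MB.

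**Figure D5:**
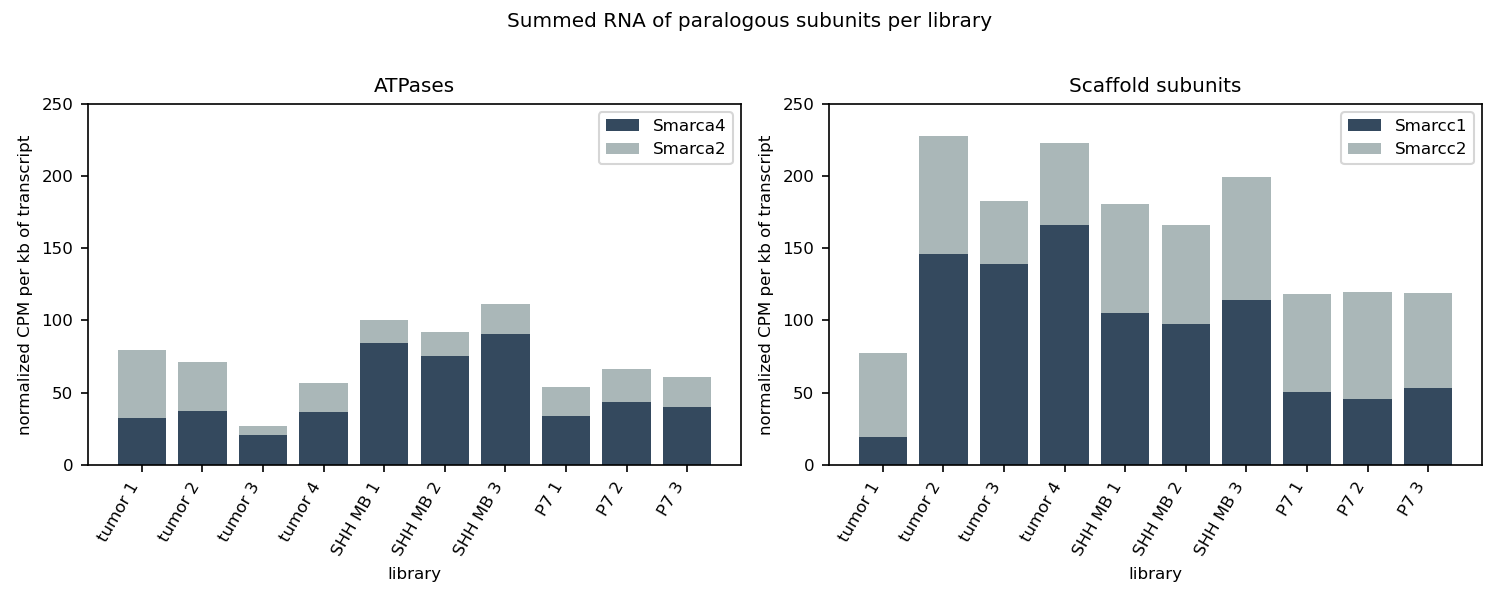
Stacked bars of normalized CPM per kilobase of canonical transcript (vertical axis) per library (horizontal axis) for the ATPases Smarca4 and Smarca2 (left) and the scaffold subunits Smarcc1 and Smarcc2 (right). The ATPase sum is lowest in tumor 3 (26.6) and highest in SHH MB 3 (111.6), and the scaffold sum is lowest in tumor 1 (77.5) and highest in tumor 2 (227.6).

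Among the core subunits, Smarce1 (BAF57), a DNA-binding HMG protein, was at 4.66 log2 CPM in tumor 1 and at 6.53, 6.48 and 6.44 in tumors 2, 3 and 4. P7 cerebella had 5.90 to 6.09 and SHH MB 6.33 to 6.52. As for Smarcc1, tumor 1 was below all libraries of the other groups. Smarcd1 (BAF60A), which links the complex to transcription factors, and Smarcb1 (SNF5) varied little, with ranges in tumors of 6.10 to 6.93 and 5.21 to 5.81 log2 CPM. Both ranges overlapped those of P7 cerebella (6.32 to 6.47 for Smarcd1, 4.93 to 5.36 for Smarcb1) and SHH MB (6.71 to 6.81 and 5.50 to 5.71).

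Arid1a was at 7.45 log2 CPM in tumor 1 and at 9.19, 8.62 and 9.35 in tumors 2, 3 and 4, beside 8.25 to 8.43 in P7 cerebella and 8.78 to 9.07 in SHH MB. Arid2 showed the same split in the tumors, with 7.33 in tumor 1 and 8.04 to 8.60 in the others, beside 7.53 to 8.11 in P7 cerebella and 8.32 to 8.57 in SHH MB. Arid1b was the most even ARID gene, with 7.51 to 8.34 in tumors, 7.98 to 8.04 in P7 cerebella and 8.08 to 8.29 in SHH MB. Per kilobase of canonical transcript, Arid1a was the leading ARID gene in every library with 37.5% to 54.4% of the summed ARID level, Arid2 had 26.0% to 33.0% and Arid1b 14.8% to 29.5%. By exon-union length Arid1a led in every library but tumor 1, where it had 33.5% and Arid1b 34.2%.

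In log2 CPM with TMM factors, tumor 1 was lowest among the tumors for Smarcc1, Smarce1, Arid1a, Arid1b and Arid2 and highest for Smarca2. It lay within the range of the others for Smarca4, Smarcc2, Smarcb1 and Smarcd1. That position rests on the TMM factors, which were 0.622 in tumor 1 and 0.807, 1.27 and 0.884 in tumors 2, 3 and 4. Per total count without them, tumor 1 was lowest for these genes too. The members together took 0.0984% of total counts in tumor 1 and 0.236%, 0.259% and 0.247% in tumors 2, 3 and 4. The difference of tumor 1 from the mean of tumors 2 to 4 in log2 CPM was -2.94 for Smarcc1, -1.82 for Smarce1, -1.61 for Arid1a, -1.03 for Arid2, -0.64 for Arid1b and 1.59 for Smarca2. Among genes of similar level, the SD of Smarcc1 over the 4 tumors was larger than that of 91.1% of genes and the SD of Smarca2 larger than that of 88.3%, while it was larger than only 11.5% to 24.5% for Smarcb1, Smarcc2, Arid1b, Smarca4 and Smarcd1. Proliferation markers in tumor 1 had a summed level of 114.7 CPM against at least 701.9 in every library of the other groups. Whether its lower subunit levels go with fewer dividing cells was not tested.

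Of 20 other subunits of BAF-family complexes, 1 rose and 1 fell in tumors against P7 cerebella, where 6.26% of all genes were called, 1 rose against SHH MB, where 4.68% were, and none was called by edgeR between SHH MB and P7 cerebella, where 0.224% were. An unadjusted p under 0.05 was found for 5, 4 and 10 of the 20 in these comparisons, against 25.2%, 19.8% and 8.8% of all genes. Median log2 fold changes were 0.29, -0.09 and 0.27 in that order. Smarcd2 (BAF60B), a paralog of Smarcd1, was at 6.19, 6.85, 6.79 and 6.24 log2 CPM in tumors 1 to 4, above all P7 cerebella (5.10 to 5.46) and all SHH MB (4.63 to 4.76). It rose by 1.25 against P7 cerebella (SE 0.26, edgeR adjusted p 0.0183) and by 1.88 against SHH MB (SE 0.27, adjusted p 0.00192). The call against SHH MB held under all 20 alternatives (adjusted p up to 0.029), and the call against P7 cerebella was lost under 6 of 20, among them without P7 cerebellum 1, 2 or 3 (adjusted p 0.11, 0.156 and 0.169) and with the replicate block (0.092). Dpf3 (BAF45C), a subunit of neuronal and muscle complexes, was at 4.24, 4.50, 3.10 and 3.60 in tumors 1 to 4 and at 5.38, 5.48 and 5.27 in P7 cerebella. It fell by 1.44 against P7 cerebella (SE 0.32, edgeR adjusted p 0.0234). SHH MB were at 4.20 to 4.64, which overlapped the tumors. Log2 fold changes of Dpf3 were -0.48 in tumors against SHH MB and -0.96 in SHH MB against P7 cerebella (edgeR adjusted p 0.438 and 0.427). The call of Dpf3 was lost under 7 of 20 alternatives, among them without any of the P7 cerebella or SHH MB (adjusted p up to 0.096).

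The subunits that progenitors and neurons exchange were looked at after their values were seen, namely neuronal Actl6b, Dpf1, Dpf3 and Ss18l1 and progenitor Actl6a, Dpf2, Phf10 and Ss18. Actl6b (BAF53B), the neuronal actin-like subunit, was at 5.07, 3.79, 2.19 and 3.13 log2 CPM in tumors 1 to 4, 5.10 to 5.37 in P7 cerebella and 3.76 to 4.01 in SHH MB. Its progenitor counterpart Actl6a was at 4.80, 5.54, 5.37 and 5.98 in tumors 1 to 4, 4.72 to 5.08 in P7 cerebella and 5.40 to 5.71 in SHH MB. Neither was called by edgeR in any comparison (adjusted p of at least 0.124). Tumor 1 had the highest Actl6b and the lowest Actl6a level of the tumors. Progenitor Phf10 ranged from 6.0 to 6.86 in tumors and 5.35 to 5.61 in P7 cerebella, without overlap, as for 21.0% of all genes, and was not called (log2 fold change 0.89, SE 0.27, edgeR adjusted p 0.0652). In SHH MB it was at 6.04 to 6.07, within the range of the tumors (log2 fold change in tumors 0.35, edgeR adjusted p 0.493). Neuronal Dpf1 was at 4.66, 3.98, 3.17 and 4.92 in tumors 1 to 4 and 3.91 to 4.35 in P7 cerebella, with log2 fold changes of 0.20 against P7 cerebella and 0.42 against SHH MB (edgeR adjusted p 0.736 and 0.579). Ss18l1, Ss18 and Dpf2 had log2 fold changes of -0.65, 0.75 and 0.25 in tumors against P7 cerebella (edgeR adjusted p 0.24, 0.143 and 0.524). Of the 8 only Dpf3 was called in the fit of all groups.

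Of 17 ATPase genes of other remodeller families, 1 rose in tumors against P7 cerebella, where 6.26% of all genes were called. None was called by edgeR against SHH MB, where 4.68% were, or between SHH MB and P7 cerebella, where 0.224% were. An unadjusted p under 0.05 was found for 5, 2 and 7 of the 17 in these comparisons, against 25.2%, 19.8% and 8.8% of all genes. Median log2 fold changes were 0.37, -0.05 and 0.52. The 1 call was Ino80, the motor of a complex that acts on histone variant H2A.Z, which rose by 0.93 (SE 0.24, adjusted p 0.0423), from 6.31 to 6.42 log2 CPM in P7 cerebella to 6.96 to 7.58 in tumors. SHH MB were at 6.79 to 7.01, which overlapped the tumors. Log2 fold changes of Ino80 were 0.42 in tumors against SHH MB and 0.52 in SHH MB against P7 cerebella (edgeR adjusted p 0.366 and 0.607). The call was lost under 14 of 20 alternatives (adjusted p up to 0.253), among them the replicate block and leaving out any library other than tumors 1 and 3.

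The genes most like Smarca4 over the 10 libraries by Pearson correlation of log2 CPM, among 10001 genes compared, were Dvl3 (0.990), Zmiz1 (0.986), Gm18281 (0.976), Irs1 (0.974) and Fam210b (0.971). For Smarca2 they were Ube2h (0.994), Ap3d1 (0.986), Fam102a (0.985), Atp1b2 (0.984) and Tmem127 (0.983). These are descriptions over 10 libraries in 3 groups, which share depth and tissue makeup within a group. Zmiz1 had a mean of 10.09 ± 0.22 log2 CPM in SHH MB (SD, n = 3), 8.50 ± 0.15 in P7 cerebella (SD, n = 3) and 7.88 ± 0.64 in tumors (SD, n = 4), the same order as Smarca4 with 9.07 ± 0.13, 7.97 ± 0.18 and 7.64 ± 0.39.

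Between genes, levels were compared per kilobase of canonical transcript. Smarcc1 had the highest mean of the 10 members in tumors (117.9 CPM per kilobase) and SHH MB (105.8), and Smarcc2 in P7 cerebella (69.1). Smarca4 had 31.8 ± 7.64 in tumors (SD, n = 4), 39.2 ± 4.73 in P7 cerebella (SD, n = 3) and 83.6 ± 7.66 in SHH MB (SD, n = 3), rank 4, 3 and 2 of the 10. Smarca2 had 26.6, 21.2 and 17.9 and ranked 8, 9 and 10. The ranks depend on the gene model. By exon-union length Smarcc1 stayed highest in tumors (49.7) and Smarcc2 in P7 cerebella (43.8), but Smarca4 was highest in SHH MB (81.7), above Smarcc2 (48.3) and Smarcc1 (44.6), and it ranked 4, 2 and 1 in tumors, P7 cerebella and SHH MB. Ranks between neighbours such as Smarcb1, Smarcd1 and Arid2 in tumors (28.3, 30.0 and 31.0) differ by less than the spread between tumors.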

How the data were processed

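FFPE tissue of 3 groups (4 MYC/SMARCA4 tumors, 3 P7 cerebella and 3 SHH MB) was sequenced after rRNA depletion. The authors trimmed reads (Trimmomatic 0.38.1), aligned them to GRCm39 (STAR 2.7.8a) and deposited counts per gene (featureCounts 2.0.1), without normalization. The annotation and strand setting are not given in the sources used here. The authors also deposited log2 values from the variance-stabilizing transformation (VST) of DESeq2, used here as an alternative with limma 3.58.1.

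Groups came from the labels. The 4 tumors were separate tumors with different age labels. For P7 cerebella and SHH MB the labels list separate samples without naming animals, so their spread may be technical. All 10 libraries entered 1 edgeR 4.0.16 quasi-likelihood fit in R 4.3.3 (TMM, filterByExpr), so the tumors share their spread with the other groups, and p-values were adjusted by the Benjamini-Hochberg method over 29952 genes, called at 0.05. The comparisons share groups and are not independent. Log2 CPM used a prior count of 2. A count of 3 was the floor, 0.304 to 0.737 CPM per library, and covers counting error only. Lengths come from canonical GENCODE transcripts. Exons of other genes overlapped at most 4.80% of a member's exons each, where reads of antisense pairs may not be told apart. Ratios were tested by exact two-sided permutation. Alternatives were DESeq2 1.42.0, limma on VST, other normalizations and filters, the replicate number as a block, a fit of just the groups compared, robust dispersion, other thresholds and each library left out. Totals without TMM factors were added after seeing the data.

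Members and gene lists were chosen with earlier results of these data known. Named genes are the 10 members, called genes of the lists of other subunits and of other remodeller ATPases, and the 5 genes most like each ATPase. The exchange subunits were picked out with their values known. The edgeR script was tested on simulated data.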

Additional observations from a re-analysis of the deposited data

Results flagged for a closer look

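Dixon's test was applied to 13 groups of 4 tumors, of which chance flags about 1 in 20, and it marked 2 values, both of tumor 1. Smarcc1 was at 6.14 log2 CPM in tumor 1, below 8.97 to 9.23 in the other tumors, with a gap of 0.917 of the range. Smarce1 was at 4.66 log2 CPM in tumor 1, below 6.44 to 6.53, with a gap of 0.951 of the range. In the same library the mean of the proliferation markers was 3.90 log2 CPM against 7.25 to 7.61 in the other tumors, the mean of the mature granule neuron markers was 9.20 against 4.44 to 7.40, and mitochondrial genes took 6.36% of the counts. Their part in these values was not tested.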

How the results depend on the processing

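In tumors against P7 cerebella 0 members were called under all alternatives except without tumor 1, where 1 was (0 to 1 with a library left out). In tumors against SHH MB 1 member was called except 0 with only these groups fitted and at a log2 fold change of 2.5 with an adjusted p of 0.01, and 0 to 1 with a library left out, 0 without any of the SHH MB. The log2 fold change of Smarca4 stayed between -1.69 and -1.33 over 20 alternatives. In SHH MB against P7 cerebella 0 were called except 1 by DESeq2 and 7 with only these groups fitted, and 0 to 2 with a library left out. Fewer samples or another spread enter those fits, and further causes were not tested. Of all genes, 195 to 9932 were called in tumors against P7 cerebella (1874 in the reported fit), 311 to 6729 against SHH MB (1403), and 0 to 6883 in SHH MB against P7 cerebella (67). The highest counts were those without tumor 3 in the first and second comparison and with only the groups compared in the third. The calls of Smarcd2, Dpf3 and Ino80 turned direction under no alternative.

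Fitted changes of members that were not called turned direction under some alternatives, and the cause was not tested. In tumors against P7 cerebella with at least 10 counts in every library they were -0.034 for Smarca2, -0.056 for Smarcd1 and -0.20 for Arid1b, and with only these groups -0.050 for Arid1b. Without TMM factors they were -0.25 for Smarca2, -0.0055 for Smarcb1, -0.051 for Smarce1, -0.17 for Smarcd1 and -0.29 for Arid1b. Against SHH MB, Smarcc1 had -0.20 by limma on VST. With a library left out the ranges against P7 cerebella were -0.21 to 0.48 for Smarca2, -0.0059 to 0.40 for Smarce1 and -0.19 to 0.072 for Arid1b. Against SHH MB they were -0.0023 to 0.74 for Smarca2, -0.19 to 0.014 for Smarcb1, -0.016 to 0.39 for Smarcc1 and -0.36 to 0.011 for Arid1a. Differences in log2 ratio ranged from -0.088 to 0.72 for Smarca2 to Smarca4 in tumors against P7 cerebella, and against SHH MB from -0.11 to 0.40 for Arid1b to Arid1a and -0.89 to 0.19 for Smarcc2 to Smarcc1.

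The replicate numbers did not pair the libraries: correlations of deviations between libraries of the same number ranged from -0.27 to 0.16. With the replicate block and 9 libraries, 0, 1 and 0 members were called in the 3 comparisons and 410, 691 and 18 of all genes, against 997, 1253 and 85 in the same libraries without it. The block gave -0.0083 for Smarce1 and -0.024 for Arid1b against P7 cerebella and -0.26 for Smarcc1 against SHH MB. Both the number of tumors with their spread and the depth limit the precision.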
